A study of Homo sapiens with 24 samples.

Results

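HEL cells were treated for 4 h or 48 h with pacritinib at 500 nM or with DMSO, the solvent, and the question here was where the effect of pacritinib on the transcriptome at 48 h differed from its effect at 4 h. The comparison used 8 of the 24 libraries of the study: 2 libraries each of DMSO at 4 h, pacritinib at 4 h, DMSO at 48 h and pacritinib at 48 h, each time with its own DMSO control. All 16076 genes that passed the filter on low counts, of 34213 in the table, were tested for the interaction, that is, pacritinib minus DMSO at 48 h, minus the same difference at 4 h. HEL is an established human erythroleukaemia line that carries an activating mutation of JAK2 and has erythroid and megakaryocytic features. The other 16 libraries came from the same cells at the same times with ruxolitinib, fedratinib, momelotinib or itacitinib, each at 500 nM, and entered the fit to estimate the spread between replicates. All groups share the cell line, so the mutant JAK2 is present in controls and treated cells alike, and the results describe a single line. The labels do not say whether the 2 libraries of a group came from separate cultures, so the p-values reflect only how far these libraries differ, and that spread may be technical.

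JAK2 is the kinase that passes the signal of receptors such as those for erythropoietin and thrombopoietin to the transcription factors STAT5 and STAT3, and in cells with the mutant kinase this signal runs without a cytokine. STAT5 switches on genes that restrain the same pathway, among them CISH and the SOCS genes, so their transcripts are widely read as a measure of signalling. Pacritinib inhibits JAK2 and is known to act on several further kinases, including FLT3, IRAK1 and ACVR1. With a kinase inhibitor, early changes can fade, persist, grow or turn as feedback and secondary changes set in, and an interaction test separates these courses.

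A gene is said here to have moved up when its log2 difference from DMSO was more positive at 48 h than at 4 h, and to have moved down when it was more negative, with an adjusted p under 0.05 in edgeR's quasi-likelihood test. A gene turned when, in addition, it was called against DMSO at both times with opposite signs. Levels are CPM (counts scaled to the depth of the library) scaled by TMM factors, and changes are log2 fold changes ± the standard error (SE) of the fit.

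Stretches of 3 promoters show DNA elements through which the pathways below are known to act. Motifs were searched in the 250 bases before each RefSeq start site (GRCh38.p14). In GENCODE 29 these windows are in part transcribed: all 250 bases of the HSPA8 and CHAC1 windows lie in exons of other transcripts of the same gene, 216 and 250 of them in UTRs, and 57 bases of the CISH window lie in a CISH exon and 117 in exons of MAPKAPK3. So 76 bases outside the exons are printed for CISH, and 30 bases around each match for the others. They run 5′ to 3′ on the gene's strand, with matches in capitals. CISH, a restraint of JAK signalling induced by STAT5, is shown because it turned from lower to higher. Its window held 4 matches to TTCNNNGAA, the element bound by STAT dimers, and 2 are in the printed stretch (chr3:50611832-50611907, minus strand). HSPA8, the constitutive heat shock cognate chaperone, is shown because its loss at 4 h was not called at 48 h, with 2 matches to a heat shock element, searched as GAA, TTC and GAA with 2 free bases between neighbours (chr11:123062346-123062375 and chr11:123062171-123062200, minus strand). CHAC1, a glutathione-degrading enzyme that is a standard reporter of the ATF4 branch of the stress response, is shown because it was above its control at 48 h, with 1 match to TGATGNAA, the element bound by ATF4 with C/EBP proteins (chr15:40953251-40953280, plus strand, match on the opposite strand).
CISH: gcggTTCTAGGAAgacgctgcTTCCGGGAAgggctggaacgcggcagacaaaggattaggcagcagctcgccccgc
HSPA8, first match: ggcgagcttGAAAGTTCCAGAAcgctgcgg
HSPA8, second match: gcgggccccTTCTGGAAGGTTCtaagatag
CHAC1: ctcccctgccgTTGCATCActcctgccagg
Both strands were searched, and the 3 motifs were counted separately, also where matches overlapped. TTCNNNGAA occurred in 1850 of 27305 promoters of this length (6.78%), in 4 of the 15 available promoters of the JAK-STAT target list (26.7%) and in 3 of 92 promoters of genes that turned from lower to higher (3.26%). It also occurred in 3 of 78 promoters of genes that turned from higher to lower (3.85%). Among all genes tested it occurred in 642 of 11333 promoters (5.66%), and no test was run on counts this small. The heat shock element occurred in 120 of 27305 promoters (0.439%), in 30 of 11333 promoters of genes tested (0.265%) and in 2 of 16 heat shock promoters (12.5%). TGATGNAA occurred in 870 of 27305 promoters (3.19%), in 172 of 11333 promoters of genes tested (1.52%) and in 3 of 15 promoters of the ATF4 list (20%).

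The 8 libraries held 32621857 to 45550784 counts, with TMM factors of 0.9578 to 1.022, and no 2 libraries were near-identical. Erythroid and megakaryocytic markers were present in all 8, for example GATA1 at 182 to 208 CPM, HBG2 at 1720 to 2360 CPM and ITGA2B at 712 to 815 CPM. The cytosolic 7SL RNA genes took 2.42% to 3.36% of the counts in DMSO and 3.84% to 4.76% with pacritinib, at both times. Mitochondrial ribosomal RNA took 0.00715% to 0.0191% of the counts at 4 h and 0.0586% to 0.128% at 48 h. Summed markers of lymphoid cells (9 of 14 tested, 2 at 0 in all 8 libraries) lay between 62.3 and 73.8 CPM, and those of monocytes and granulocytes (4 of 14 tested, 2 at 0) between 68.1 and 77.3 CPM. The part of these RNA fractions in the results was not tested, but leaving the abundant RNAs out of the scaling gave 2906 calls against 2881.

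The effect of pacritinib differed between 4 h and 48 h at 2881 of the 16076 genes (17.9%), 1662 moving up (10.3%) and 1219 moving down (7.58%). At least 2-fold interactions were found for 201 of those that moved up and 129 of those that moved down. The median over all genes was 0.0025, which TMM scaling sets near 0, so a change in total RNA could not be seen. Against DMSO, 4914 genes were called at 4 h (30.6%), 2109 or 13.1% higher and 2805 or 17.4% lower. At 48 h 2948 were called (18.3%), 1328 or 8.26% higher and 1620 or 10.1% lower. Counts of list members given below are to be read against the shares in this paragraph. The log2 changes at the 2 times, which share no library, had a Pearson r of 0.141 and a Spearman rho of 0.219 across genes, or 0.326 and 0.312 over the 9426 genes whose average log2 CPM reached 3. These values are across genes, which are not independent replicates.

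The commonest course was a change present at 4 h and not called at 48 h. Of the 2881 genes, 1072 (37.2%) were lower at 4 h only and 528 (18.3%) higher at 4 h only. Changes called at 48 h only were fewer, with 432 genes lower (15%) and 272 higher (9.44%). A further 158 were called at both times in the same direction with an effect of different size, and 191 (6.63%) were called at neither time. The remaining 228 turned, 126 from lower to higher (4.37% of the interactions, 0.784% of all genes tested) and 102 from higher to lower (3.54%, 0.634% of all). Seen from the other side, 1312 genes were called at both times and 228 of these (17.4%) had opposite signs. At the edge of the threshold, FEM1A (0.20, adjusted p = 0.0497) and LRIG3 (0.42, 0.0499) were just inside and C3orf14 (-0.76, 0.05) and MAB21L3 (-2.61, 0.0503) just outside.

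**Figure D1:**
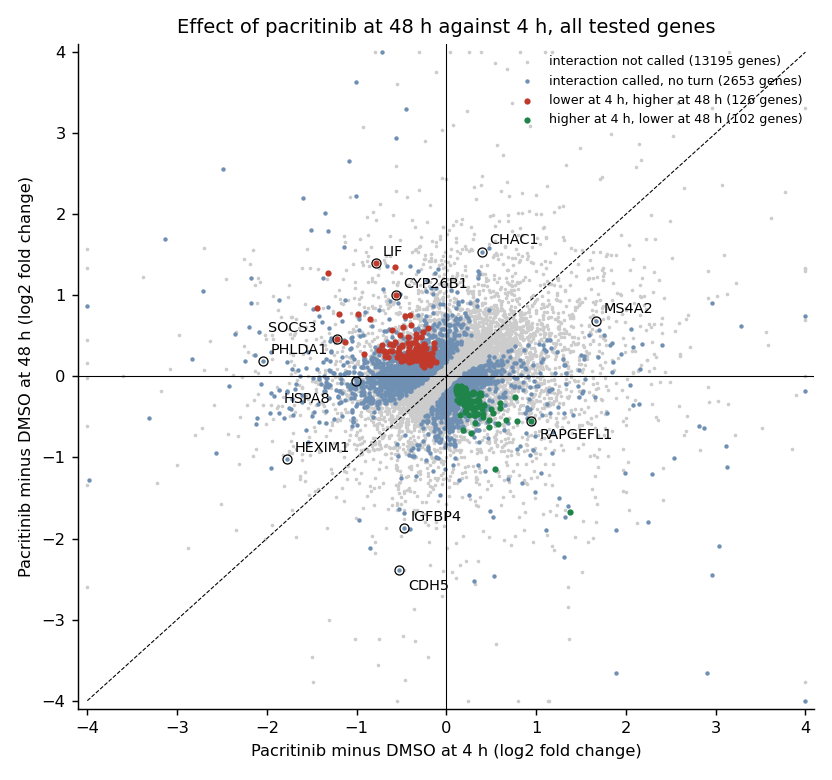
Each point is a gene, with the log2 fold change of pacritinib against DMSO at 4 h on the horizontal axis and at 48 h on the vertical axis, and values beyond 4 drawn at the edge (34 genes). Genes on the dashed diagonal had equal effects, and the 126 red genes lie in the upper left and the 102 green genes in the lower right. Most other genes with an interaction (blue) had a change at 4 h that was not called at 48 h.

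Leaving out pacritinib 4 h replicate 2 lowered the interactions to 1801 (1058 up and 743 down) and the calls at 4 h to 3237. The other 7 libraries left out in turn gave 2105 to 2711 interactions. The calls at 48 h fell from 2948 to 1851 and 1647 without DMSO 48 h replicates 1 and 2, and to 1492 without pacritinib 48 h replicate 1.

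The changes of the genes that turned were mostly modest in size. The median change of the 126 genes that turned up was -0.34 at 4 h and 0.28 at 48 h, and that of the 102 that turned down was 0.22 and -0.26. In all 228, the 4 pairwise differences between pacritinib and DMSO libraries at 48 h did not overlap those at 4 h, against 44% of all genes tested. The rule for turning favours such genes, so this separation does not support the turns. An average log2 CPM of 3 was reached by 110 and 92 of them. Leaving out 1 library moved the counts to between 56 and 104 for turning up and between 42 and 107 for turning down. The count for turning up fell to 66 and 59 without DMSO 48 h replicates 1 and 2, 71 without DMSO 4 h replicate 2, 56 and 75 without pacritinib 48 h replicates 1 and 2, and 76 without pacritinib 4 h replicate 2. That for turning down fell to 59, 61, 58, 60, 56 and 42 without DMSO 48 h replicates 1 and 2, DMSO 4 h replicates 1 and 2, pacritinib 48 h replicate 1 and pacritinib 4 h replicate 2. Without a call at each time but with at least 1.5-fold changes of opposite sign, 41 genes turned up and 33 down.

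LIF, a cytokine of the interleukin-6 family that signals through JAK and STAT3, was the clearest turn (chromosome 22, 30240447 to 30246851, minus strand, GENCODE 29 on GRCh38). Its level was 21.4 and 24.5 CPM with DMSO and 15.1 and 11.6 CPM with pacritinib at 4 h, and 12.8 and 14.2 CPM with DMSO and 37.0 and 34.2 CPM with pacritinib at 48 h. The DMSO level of LIF was itself lower at 48 h than at 4 h. All pacritinib libraries lay below their controls at 4 h and above them at 48 h, with no overlap. The change was -0.79 ± 0.12 at 4 h and 1.398 ± 0.12 at 48 h, an interaction of 2.18 ± 0.17 (edgeR adjusted p = 1.13e-10). OSM, which encodes oncostatin M, another cytokine of that family, took the same course. It was at 3.81 and 4.24 (DMSO, 4 h), 2.74 and 2.70 (pacritinib, 4 h), 3.23 and 2.89 (DMSO, 48 h) and 7.54 and 8.04 CPM (pacritinib, 48 h), an interaction of 1.92 ± 0.24 (edgeR adjusted p = 7.27e-07). CYP26B1, which degrades retinoic acid, also turned. It stood at 20.1 and 19.2 (DMSO, 4 h), 15.0 and 11.5 (pacritinib, 4 h), 6.84 and 7.42 (DMSO, 48 h) and 14.0 and 14.5 CPM (pacritinib, 48 h). The DMSO level dropped between the times (-1.46 ± 0.12) while that with pacritinib was 0.11 ± 0.11 (edgeR adjusted p = 0.504), an interaction of 1.56 ± 0.16. SKIL and FST, both antagonists in the TGF-beta family network, also turned, SKIL with -0.39 ± 0.097 at 4 h and 0.63 ± 0.098 at 48 h, and FST, which encodes follistatin, with -0.40 ± 0.11 and 0.76 ± 0.11. The other genes in this direction by the naming rule were RGS19, a regulator of G-protein signalling (0.87 ± 0.095), FAM111B, which encodes a protease (0.98 ± 0.14), DMWD (1.03 ± 0.13), and the genes SOCS3, CISH and FOSL1 described below. A group of 6 genes that turned up changed by at least 1.5-fold at each time, LIF among them.

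In the opposite direction, RAPGEFL1, which belongs to the family of exchange factors for Rap proteins, was highest with pacritinib at 4 h and lowest with pacritinib at 48 h (chromosome 17, 40177010 to 40195656, plus strand, GENCODE 29 on GRCh38). Its level was 7.73 and 7.43 CPM with DMSO and 14.6 and 14.5 CPM with pacritinib at 4 h, and 8.52 and 8.91 CPM with DMSO and 5.57 and 6.31 CPM with pacritinib at 48 h. The change was 0.94 ± 0.12 at 4 h and -0.55 ± 0.13 at 48 h, an interaction of -1.49 ± 0.17 (edgeR adjusted p = 2.56e-07). LIPC, hepatic lipase, went from 0.79 ± 0.11 to -0.56 ± 0.11 and AGPAT4, an acyltransferase of phospholipid synthesis, from 0.77 ± 0.065 to -0.25 ± 0.068. LGALS9, which encodes galectin 9 and has near-identical copies that can share its reads, went from 0.35 ± 0.061 to -0.47 ± 0.063. PARD3B, a polarity protein gene (-0.997 ± 0.14), GRIP1, a scaffold protein gene (-0.80 ± 0.11), and LRBA, a gene of vesicle traffic (-0.70 ± 0.13), turned in the same way, together with the lipid genes MSMO1 and SCD and the globin gene HBE1, described below. FGD5 alone in this direction changed by at least 1.5-fold at each time (1.37 ± 0.36 at 4 h and -1.68 ± 0.48 at 48 h), at a mean log2 CPM under 0, and is named here after its values were seen.

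**Figure D2:**
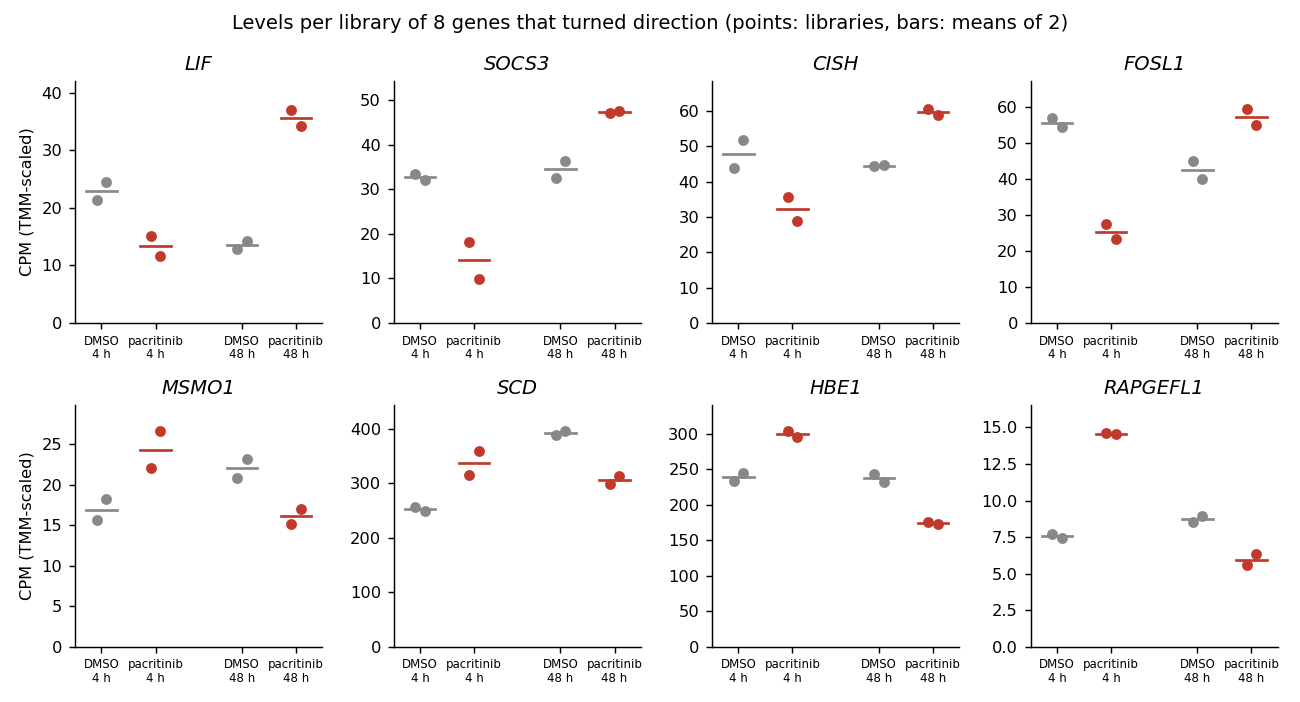
CPM in each library (points, 2 per group) and group means (bars) of 4 genes that turned from lower to higher and 4 that turned from higher to lower, with DMSO in grey and pacritinib in red. In each panel both pacritinib points lie on 1 side of DMSO at 4 h and on the other side at 48 h.

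Of 23 targets and feedback genes of JAK-STAT signalling tested, 14 moved up, none moved down and 9 had no interaction (against 10.3% and 7.58% of all genes), with a median interaction of 0.58 and 5 that turned. At 4 h, 17 of the 23 were lower than in DMSO and 1 higher (17.4% and 13.1% of all genes), with a median of -0.57. At 48 h, 4 were lower and 5 higher (10.1% and 8.26% of all genes), with a median of 0.032. The count of genes that moved up stayed between 13 and 15 in every fit that left out a library and every other setting tried, and 1 moved down with the 8 libraries alone.

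The SOCS proteins bind activated receptors and JAKs and shut them off. SOCS3 stood at 33.4 and 32.1 CPM with DMSO and 18.2 and 9.89 CPM with pacritinib at 4 h, and 32.6 and 36.4 CPM with DMSO and 47.1 and 47.5 CPM with pacritinib at 48 h (chromosome 17, 78356778 to 78360077, minus strand, GENCODE 29 on GRCh38). Its libraries with pacritinib at 4 h differed from each other but were both below DMSO, and at 48 h both were above it. The interaction was 1.68 ± 0.17 (edgeR adjusted p = 2.71e-08), from -1.22 ± 0.13 at 4 h to 0.46 ± 0.12 at 48 h. CISH, part of whose promoter is printed above, was at 43.7 and 51.9 (DMSO, 4 h), 35.6 and 28.9 (pacritinib, 4 h), 44.4 and 44.6 (DMSO, 48 h) and 60.7 and 58.9 CPM (pacritinib, 48 h). It went from -0.57 ± 0.075 to 0.43 ± 0.073, an interaction of 1.00 ± 0.10 (edgeR adjusted p = 3.71e-08). SOCS2 took the same course, from -0.69 ± 0.082 to 0.31 ± 0.081, with levels of 16.9 and 15.9 CPM with pacritinib at 4 h and 26.0 and 29.05 CPM at 48 h against 25.9 and 26.9 CPM in DMSO at 4 h and 22.5 and 22.0 CPM in DMSO at 48 h. SOCS1 was the exception among these feedback genes, since it was lower at 4 h and not called at 48 h. Its level was 11.4 and 11.6 (DMSO, 4 h), 4.23 and 2.55 (pacritinib, 4 h), 9.06 and 7.504 (DMSO, 48 h) and 6.77 and 7.78 CPM (pacritinib, 48 h), a change of -1.77 ± 0.17 at 4 h and -0.18 ± 0.16 (edgeR adjusted p = 0.503) at 48 h.

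PIM1, a survival kinase and STAT5 target, changed less. It stood at 628 and 632 CPM with DMSO and 569 and 491 CPM with pacritinib at 4 h, and 564 and 573 CPM with DMSO and 623 and 640.2 CPM with pacritinib at 48 h, so the groups were separate at both times by a small margin. It went from -0.25 ± 0.053 to 0.15 ± 0.053 (edgeR adjusted p = 0.0436 at 48 h), an interaction of 0.40 ± 0.075. PIM2 and PIM3, its paralogues, moved up (1.08 ± 0.083 and 0.60 ± 0.099). BCL2L1, which encodes the anti-apoptotic BCL-XL, went from 232 and 229 CPM in DMSO and 149 and 144 CPM with pacritinib at 4 h to 212 and 218 CPM in DMSO and 207 and 202 CPM with pacritinib at 48 h, an interaction of 0.58 ± 0.062. Not all targets took part. MYC, at 917 and 915 (DMSO, 4 h), 928 and 901 (pacritinib, 4 h), 748 and 726 (DMSO, 48 h) and 722 and 711 CPM (pacritinib, 48 h), had an interaction of -0.039 ± 0.056 (edgeR adjusted p = 0.698), and that of the cyclin gene CCND2 was -0.17 ± 0.071 (0.104). JAK2 itself was at 165 and 159 (DMSO, 4 h), 164 and 166 (pacritinib, 4 h), 168 and 177 (DMSO, 48 h) and 171 and 162 CPM (pacritinib, 48 h), an interaction of -0.078 ± 0.075 (0.532).

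Among 28 genes for JAKs, STATs and the receptors that use them, 4 moved up and 2 down (1 down without replicate 2 of any of the 4 groups), and the median was -0.032. These counts lay near the shares of all genes, 10.3% up and 7.58% down. The interferon receptor genes IFNAR2 and IFNGR2 turned from lower to higher, IFNGR2 from -0.34 ± 0.11 to 0.47 ± 0.11. The receptor genes IL21R and IL4R also moved up. IL21R had a large drop at 4 h, from 22.0 and 19.7 CPM in DMSO to 4.94 and 4.63 CPM, and at 48 h it was at 22.0 and 22.9 CPM in DMSO and 13.5 and 16.4 CPM with pacritinib, still lower (-0.58 ± 0.10). IL4R went from -1.399 ± 0.11 to -0.089 ± 0.11. IL2RG, the common gamma chain, moved down (-0.47 ± 0.071), being called at 48 h only. Of 12 genes for phosphatases and other restraints of JAK signalling, 2 moved down and none up. They were PTPRC, the receptor phosphatase CD45 (-0.46 ± 0.067), and PTPN11, the phosphatase SHP2 (-0.19 ± 0.069, edgeR adjusted p = 0.0492), whose call was lost in 7 of the 8 fits that left out a library.

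Outputs of the ERK kinase pathway moved up in part. Of 21 tested, 9 moved up and 2 down (10.3% and 7.58% of all genes). The number that moved up was smaller without some single libraries. The median interaction was 0.40, with a median at 4 h of -0.82 and at 48 h of -0.23. At 4 h 17 were lower and none higher (17.4% and 13.1% of all genes), and at 48 h 9 were lower and 1 higher (10.1% and 8.26%). PHLDA1, an immediate early gene, had the largest interaction of the genes chosen by the naming rule, which leaves out FGD5 and other genes of low level, 2.22 ± 0.19 (edgeR adjusted p = 7.82e-10, chromosome 12, 76025447 to 76033932, minus strand, GENCODE 29 on GRCh38). Its level was 51.3 and 48.9 CPM with DMSO and 13.7 and 10.7 CPM with pacritinib at 4 h, and 7.16 and 9.26 CPM with DMSO and 8.04 and 10.54 CPM with pacritinib at 48 h. The DMSO libraries at 4 h stood apart as high, and the other 6 libraries ran from 7.16 to 13.7 CPM. The control level dropped between the times (-2.61 ± 0.13), against -0.38 ± 0.14 with pacritinib. FOSL1, a subunit of the transcription factor AP-1, turned instead. It was at 57 and 54.5 CPM with DMSO and 27.4 and 23.4 CPM with pacritinib at 4 h, and 45.1 and 40 CPM with DMSO and 59.4 and 55.1 CPM with pacritinib at 48 h, with -1.13 ± 0.083 at 4 h, 0.43 ± 0.080 at 48 h and an interaction of 1.56 ± 0.12. DUSP5, a nuclear ERK phosphatase, went from -1.81 ± 0.15 to -0.51 ± 0.14. DUSP6, the cytoplasmic ERK phosphatase and a common readout of ERK activity, remained low at both times, at 9.57 and 10.3 (DMSO, 4 h), 3.64 and 3.02 (pacritinib, 4 h), 12.5 and 13.2 (DMSO, 48 h) and 5.08 and 6.23 CPM (pacritinib, 48 h). Its interaction of 0.40 ± 0.18 did not pass the test (edgeR adjusted p = 0.115).

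CCND1, which encodes cyclin D1, was 1 of the 2 ERK outputs that moved down, at a low level. The number was 0 without DMSO 4 h replicate 1 or pacritinib 4 h replicate 2 and 1 without DMSO 48 h replicate 1, DMSO 4 h replicate 2 or pacritinib 48 h replicate 1. It stood at 1.84 and 2.26 (DMSO, 4 h), 0.999 and 1.29 (pacritinib, 4 h), 5.04 and 4.62 (DMSO, 48 h) and 0.954 and 1.26 CPM (pacritinib, 48 h). The control level rose between the times and the change with pacritinib was -0.038 ± 0.28 (edgeR adjusted p = 0.939), an interaction of -1.26 ± 0.36 (edgeR adjusted p = 0.0129). The call was lost without DMSO 4 h replicate 1 (0.0506), pacritinib 48 h replicate 1 (0.0647) or pacritinib 4 h replicate 2 (0.0999). Of 14 receptor tyrosine kinase genes, none moved up and 3 moved down, PDGFRB (-1.12 ± 0.23), IGF1R (-0.31 ± 0.071) and TIE1 (-0.24 ± 0.069), TIE1 losing its call without DMSO 4 h replicate 1 or pacritinib 48 h replicate 1. Of 13 genes of the ID and BMP-SMAD list, 3 moved up (1 without pacritinib 4 h replicate 2) and 1 down. ID1, an inhibitor of differentiation factors induced by BMP receptors, was lower at both times, -1.05 ± 0.077 at 4 h and -0.61 ± 0.074 at 48 h, an interaction of 0.44 ± 0.11. That call was lost without pacritinib 48 h replicate 2 or pacritinib 4 h replicate 2. BAMBI, a decoy receptor of the same family, moved down (-0.64 ± 0.11).

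The transcription elongation factor P-TEFb is held inactive by the 7SK RNA with HEXIM1 and the capping enzyme MEPCE, and genes of this control are sensitive to changes in elongation. Of 19 tested, 6 moved up and 3 down (1 down without pacritinib 48 h replicate 1 or pacritinib 4 h replicate 2), with a median of -0.043. At 4 h 8 were higher and 7 lower (13.1% and 17.4% of all genes), and at 48 h 3 and 3 (8.26% and 10.1%). MEPCE was at 164 and 170.1 CPM with DMSO and 72.3 and 60.0 CPM with pacritinib at 4 h, and 153 and 147 CPM with DMSO and 142 and 144 CPM with pacritinib at 48 h. Its loss at 4 h (-1.34 ± 0.059) was not seen at 48 h (-0.065 ± 0.057, edgeR adjusted p = 0.49), an interaction of 1.27 ± 0.082. HEXIM1 recovered only in part, from 102 and 104 CPM in DMSO and 32.7 and 27.6 CPM with pacritinib at 4 h to 106 and 99.8 CPM in DMSO and 47.7 and 53.3 CPM with pacritinib at 48 h, so it was lower at both times (-1.77 ± 0.063 and -1.03 ± 0.060). POLR2A, the large subunit of RNA polymerase II, moved down (-0.39 ± 0.099), from -0.11 ± 0.070 at 4 h (edgeR adjusted p = 0.25) to -0.50 ± 0.070 at 48 h.

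Several chaperone genes that were lower at 4 h were near their control level at 48 h. Of 17 heat shock genes, 6 moved up and 1 down (0 to 3 down over the settings). Over all genes 10.3% moved up and 7.58% down. The median of the list was 0.065, and 10 members had no interaction. At 4 h 8 were lower and 1 higher (17.4% and 13.1% of all genes), and at 48 h 5 were lower (10.1% of all genes). HSPA8, part of whose promoter is printed above, was at 2973 and 3024 CPM with DMSO and 1554 and 1425 CPM with pacritinib at 4 h, and 3377 and 3517 CPM with DMSO and 3394 and 3226 CPM with pacritinib at 48 h. Its libraries with pacritinib at 4 h stood alone, an interaction of 0.95 ± 0.062 (edgeR adjusted p = 2.23e-12). DNAJB1, a co-chaperone of HSP70, went from -0.95 ± 0.055 to 0.030 ± 0.054, an interaction of 0.98 ± 0.077. The inducible HSP70 genes HSPA1B and HSPA1A are nearly identical, so reads may be shared between them. HSPA1B was at 63.7 and 63.2 (DMSO, 4 h), 20.3 and 16.9 (pacritinib, 4 h), 57.1 and 55.8 (DMSO, 48 h) and 48.0 and 50.6 CPM (pacritinib, 48 h), an interaction of 1.58 ± 0.090, and HSPA1A had 1.73 ± 0.26. HSP90AB1, the constitutive HSP90, moved down (-0.18 ± 0.057). Of 19 genes of the endoplasmic reticulum stress response, 3 moved up (1 without pacritinib 48 h replicate 2) and 1 down (3 with DESeq2). HERPUD1 went from -0.55 ± 0.080 to 0.19 ± 0.078 (edgeR adjusted p = 0.0872), and the chaperone gene HSP90B1 moved down (-0.29 ± 0.066).

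**Figure D3:**
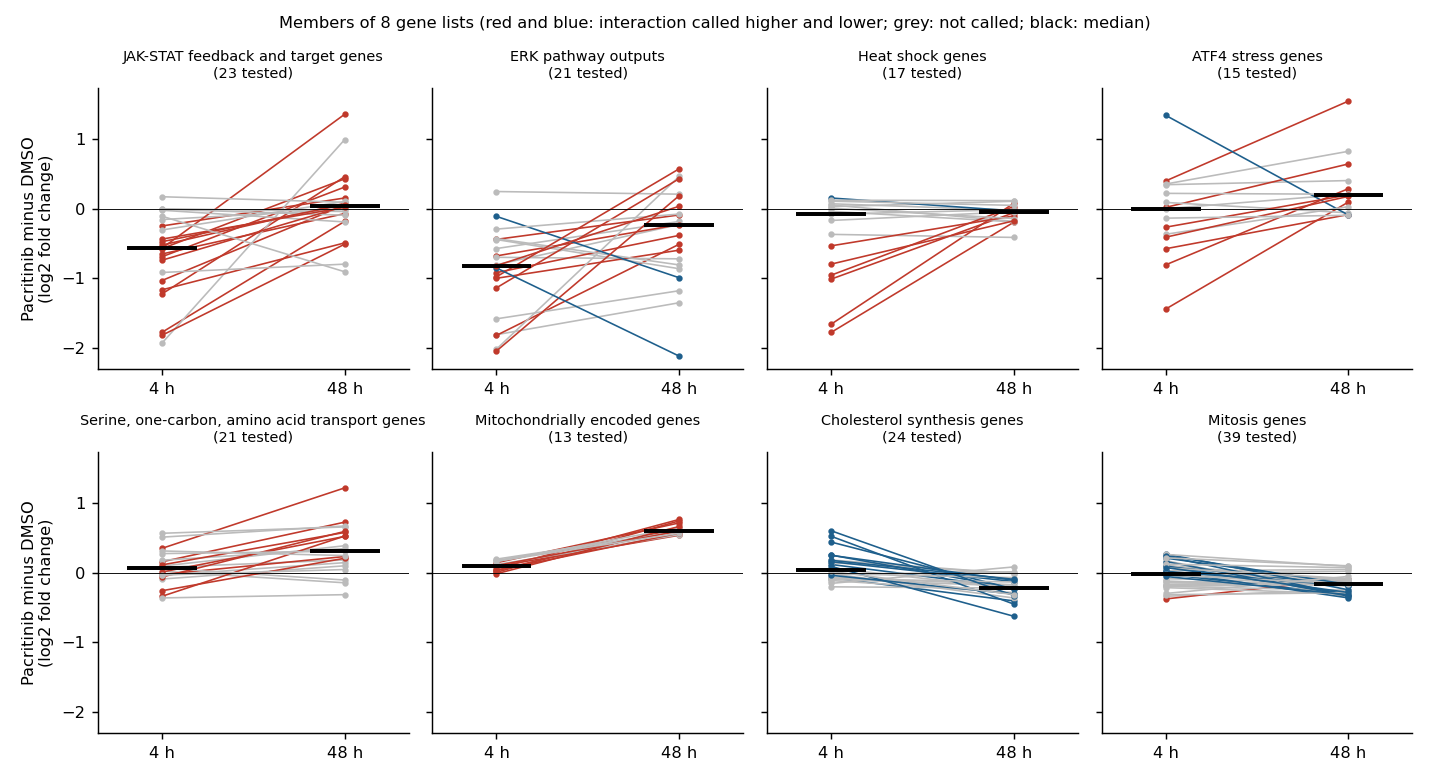
Each line is a gene, drawn from its log2 fold change of pacritinib against DMSO at 4 h to that at 48 h, in 8 of the lists, with red for genes that moved up, blue for genes that moved down, grey for genes with no interaction and black bars for the medians. The JAK-STAT lines rise from a median of -0.57 to 0.032, and the cholesterol lines decline from 0.041 to -0.22.

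A part of the genes of the ATF4 stress response and of amino acid supply moved up, and many of them declined in DMSO between 4 h and 48 h. Of 15 ATF4 genes, 7 moved up and 1 down, with a median of 0.46. In DMSO, 10 of the 15 were lower at 48 h than at 4 h and none higher (4.12% of all genes were lower), a median of -0.35. Against DMSO, 5 were higher and 7 lower with pacritinib at 4 h, and 7 were higher and none lower at 48 h. CHAC1, part of whose promoter is printed above, was at 12.96 and 16.2 CPM with DMSO and 18.9 and 19.6 CPM with pacritinib at 4 h, and 3.39 and 2.402 CPM with DMSO and 9.73 and 7.20 CPM with pacritinib at 48 h. It dropped between the times under both treatments, by less with pacritinib (-1.19 ± 0.14) than with DMSO (-2.34 ± 0.17), and so was higher than DMSO at 48 h by 1.54 ± 0.18, an interaction of 1.14 ± 0.22 (edgeR adjusted p = 0.000382). DDIT3, the transcription factor CHOP, went from -0.81 ± 0.11 to 0.29 ± 0.12 (edgeR adjusted p = 0.109), with a change over time of -1.28 ± 0.11 in DMSO. ATF3 had an interaction of 1.53 ± 0.37, which was lost without pacritinib 48 h replicate 1 (adjusted p = 0.145). VLDLR moved down (-1.43 ± 0.48) at a level of about 1 to 4 CPM, a call lost in 4 of the 8 fits that left out a library. CEBPG, the partner of ATF4, turned from lower to higher.

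Serine synthesis feeds the one-carbon pool used for nucleotides. Of 21 genes of serine synthesis, one-carbon metabolism and amino acid transport, 8 moved up and none down, with a median of 0.18. At 48 h, 14 were higher than in DMSO and 2 lower, against 4 and 3 at 4 h. PHGDH, the entry enzyme of serine synthesis, was at 62.7 and 64.9 CPM with DMSO and 83.8 and 78.5 CPM with pacritinib at 4 h, and 52.4 and 52.9 CPM with DMSO and 129 and 115 CPM with pacritinib at 48 h. It was higher at both times and more so at 48 h (0.35 ± 0.070 and 1.21 ± 0.071), an interaction of 0.87 ± 0.099 (edgeR adjusted p = 1.95e-07). PSAT1, the next enzyme, had 0.57 ± 0.087. SLC7A5, a transporter of large neutral amino acids, was at 545 and 545 CPM with pacritinib at 4 h and 606 and 566 CPM at 48 h, while DMSO went from 556 and 583 CPM to 392.2 and 387 CPM, an interaction of 0.65 ± 0.068. The neutral amino acid exchangers SLC1A4 and SLC1A5 turned from lower to higher, SLC1A4 from -0.34 ± 0.073 to 0.52 ± 0.072.

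Genes of the cholesterol synthesis list included many that moved down. They are controlled together by the transcription factor SREBP2, which is released when sterols are scarce. Of 24 tested, 11 moved down and none up (7.58% and 10.3% of all genes), with a median of -0.28. At 4 h 8 were higher and none lower (13.1% and 17.4% of all genes), and at 48 h 9 were lower and none higher (10.1% and 8.26%). In DMSO 8 were higher at 48 h than at 4 h and none lower (4.04% and 4.12% of all genes). MSMO1, a sterol demethylase, was at 15.6 and 18.2 CPM with DMSO and 22.1 and 26.6 CPM with pacritinib at 4 h, and 20.9 and 23.2 CPM with DMSO and 15.2 and 17.0 CPM with pacritinib at 48 h (chromosome 4, 165327623 to 165343160, plus strand, GENCODE 29 on GRCh38). It turned from 0.52 ± 0.11 to -0.45 ± 0.12, an interaction of -0.97 ± 0.16 (edgeR adjusted p = 6.09e-05), and its change over time was 0.38 ± 0.11 in DMSO and -0.59 ± 0.11 with pacritinib. FDFT1, squalene synthase, also turned. INSIG1, which retains SREBP and is itself a target, was called at 48 h only (-0.62 ± 0.064), an interaction of -0.71 ± 0.091. HMGCS1, which makes HMG-CoA, had -0.33 ± 0.084 (edgeR adjusted p = 0.00522), and lost its call without DMSO 48 h replicate 2 or pacritinib 4 h replicate 2. The count of 11 lay between 8 and 11 when a library was left out.

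Of 15 genes of fatty acid synthesis and desaturation, 6 moved down and 2 up, a median of -0.19. The number that moved down fell to 2 without DMSO 48 h replicate 1, DMSO 4 h replicate 1 or pacritinib 4 h replicate 2. In DMSO 7 of the 15 rose between the times and none fell (4.04% and 4.12% of all genes). SCD, the desaturase that makes oleic acid, was at 257 and 249 CPM with DMSO and 316 and 359 CPM with pacritinib at 4 h, and 388 and 397 CPM with DMSO and 299 and 313 CPM with pacritinib at 48 h. It was above DMSO at 4 h (0.42 ± 0.054) and below it at 48 h (-0.36 ± 0.054), an interaction of -0.77 ± 0.076. ACACA, which makes the malonyl-CoA used in fatty acid synthesis, moved down (-0.42 ± 0.097), whereas ELOVL1, which extends long fatty acids, turned from lower to higher (-0.20 ± 0.052 and 0.27 ± 0.051).

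A part of the beta-like globin genes moved down, while the alpha-like genes did not pass the test. Of 10 globin genes, 4 moved down and none up (2 up with the 8 libraries alone, 1 with no filter and 1 without DMSO 4 h replicate 2), with a median of -0.090, and the median under the alternatives ran from -0.22 to 0.01. At 4 h 6 were higher and none lower, and at 48 h 3 were higher and 2 lower. HBE1, the embryonic beta-like globin, was at 234 and 244 CPM with DMSO and 303 and 295 CPM with pacritinib at 4 h, and 243 and 231 CPM with DMSO and 176 and 173 CPM with pacritinib at 48 h. It turned from 0.32 ± 0.062 to -0.44 ± 0.063, an interaction of -0.76 ± 0.088 (edgeR adjusted p = 2.08e-07). HBG2, a fetal globin gene nearly identical to HBG1, was at 1974 and 1891 CPM with DMSO and 2357 and 2276 CPM with pacritinib at 4 h, and 1798 and 1786 CPM with DMSO and 1721 and 1751 CPM with pacritinib at 48 h, an interaction of -0.31 ± 0.085, with no difference called at 48 h. HBD and HBB, at no more than 12 CPM, had interactions of -1.17 ± 0.20 and -0.90 ± 0.23, and HBB lost its call without pacritinib 4 h replicate 2 (adjusted p = 0.0531). The alpha globin genes HBA1 and HBA2 had 0.14 ± 0.14 and 0.25 ± 0.14 (edgeR adjusted p = 0.556 and 0.224).

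Of 20 genes of haem synthesis and iron, 1 moved up and 3 down (10.3% and 7.58% of all genes). TFRC, the transferrin receptor, was higher at both times and more so at 48 h (0.19 ± 0.047 and 0.52 ± 0.047), while its control level declined (-0.37 ± 0.047). SLC25A37, the mitochondrial iron importer mitoferrin 1 (-0.35 ± 0.067), and FTL, the ferritin light chain (-0.28 ± 0.055), moved down. Of 20 genes of the red cell membrane, 3 moved up and 3 down, near the shares of all genes (10.3% and 7.58%), and without pacritinib 48 h replicate 1 only 1 moved up. EPB42, protein 4.2 of the membrane skeleton, turned from 0.15 ± 0.050 to -0.47 ± 0.051, and RHD, a blood group gene with a close copy, from 0.14 ± 0.049 to -0.31 ± 0.049. GYPE, a glycophorin gene that is close in sequence to other glycophorin genes, turned the other way, from -0.68 ± 0.056 to 0.30 ± 0.055. Of 24 transcription factors of the erythroid and megakaryocytic lineages, 4 moved up and 7 down, CEBPA (1.60 ± 0.33), RUNX3 (0.72 ± 0.16), KLF3 (-0.42 ± 0.084) and ETV6 (-0.39 ± 0.067), and FLI1 turned from higher to lower.

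Of 26 genes of platelet receptors and granules, 2 moved up and 5 down (10.3% and 7.58% of all genes), a median of -0.079. The number that moved down was 3 without DMSO 4 h replicate 1 or pacritinib 4 h replicate 2. SELP, P-selectin of platelet granules and endothelium, was at 31.4 and 29.7 CPM with DMSO and 26.5 and 27.2 CPM with pacritinib at 4 h, and 44.6 and 47.6 CPM with DMSO and 23.5 and 24.5 CPM with pacritinib at 48 h. Its control level rose between the times and that with pacritinib did not, an interaction of -0.76 ± 0.11 (edgeR adjusted p = 1.63e-05). GP9, a subunit of the von Willebrand factor receptor, was called at 48 h only (-0.55 ± 0.077). THBS1, thrombospondin, moved up from -1.30 ± 0.081 to -0.10 ± 0.080. Of 13 mast cell and basophil genes, 2 moved down, MS4A2, the beta chain of the IgE receptor, from 1.67 ± 0.11 to 0.69 ± 0.11 and CPA3, a granule protease, (-0.47 ± 0.11).

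Genes also used as endothelial markers, which HEL cells express, were low with pacritinib at 48 h. The list of fibroblast, epithelial and endothelial markers had 7 of 14 members tested, none at 0 in all 8 libraries, and 4 moved down and none up. Its summed level was 207 to 216 CPM in DMSO and 197 to 199 CPM with pacritinib at 4 h, and 207 to 219 CPM in DMSO and 141 to 146 CPM with pacritinib at 48 h. Whether these genes came from the same cells as the erythroid genes was not tested. CDH5, VE-cadherin, was at 9.15 and 9.39 CPM with DMSO and 6.30 and 6.54 CPM with pacritinib at 4 h, and 14.3 and 12.8 CPM with DMSO and 2.80 and 2.39 CPM with pacritinib at 48 h. It was lower at both times, and the difference was far larger at 48 h (-2.39 ± 0.15) than at 4 h (-0.53 ± 0.14), an interaction of -1.86 ± 0.21 (edgeR adjusted p = 1.28e-07). KDR, the receptor of VEGF, went from -0.98 ± 0.099 to -1.77 ± 0.11, and PECAM1 was called at 48 h only (-0.32 ± 0.045). KRT18, a keratin, had -0.61 ± 0.21, a call that 6 of the 8 fits without a library did not keep. Among the lymphoid markers CD79A moved down (-1.16 ± 0.22), and no monocyte or granulocyte marker had an interaction. IGFBP4, a binding protein of insulin-like growth factors, and NTS, neurotensin, took the course of CDH5. IGFBP4 was at 17.0 and 16.8 (DMSO, 4 h), 11.9 and 12.4 (pacritinib, 4 h), 22.8 and 21.4 (DMSO, 48 h) and 4.96 and 6.99 CPM (pacritinib, 48 h) (interaction -1.400 ± 0.17), and NTS went from -0.52 ± 0.10 to -1.64 ± 0.12.

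NF-kB is activated by IRAK1 downstream of interleukin-1 and toll-like receptors. Of 19 of its targets tested, 7 moved up and 1 down, with a median of 0.32. At 4 h 13 were lower and none higher (17.4% and 13.1% of all genes), a median of -0.75. By 48 h 3 were lower and none higher (10.1% and 8.26% of all genes), a median of -0.097. The number that moved up fell to 4 without pacritinib 4 h replicate 2. BCL3, a nuclear co-activator of NF-kB that STAT3 also induces, was at 23.6 and 22.9 CPM with DMSO and 7.17 and 3.94 CPM with pacritinib at 4 h, and 16.5 and 15.3 CPM with DMSO and 13.3 and 16.5 CPM with pacritinib at 48 h. At 48 h pacritinib and DMSO overlapped, an interaction of 1.98 ± 0.20 (edgeR adjusted p = 2.71e-08). CD83 and the chemokine gene CXCL3 moved up (1.16 ± 0.19 and 1.01 ± 0.23). IL1B, interleukin-1 beta, went against its list. It was at 41.7 and 40.7 (DMSO, 4 h), 37.6 and 36.5 (pacritinib, 4 h), 54.2 and 48.7 (DMSO, 48 h) and 20.5 and 25.1 CPM (pacritinib, 48 h), with no call at 4 h (-0.15 ± 0.075, edgeR adjusted p = 0.128) and -1.17 ± 0.079 at 48 h, an interaction of -1.02 ± 0.11.

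In the interleukin-1 and toll-like receptor pathway itself, 4 of 17 genes moved up and 1 down, among them the adaptors MYD88 (0.57 ± 0.094), which was called at 4 h only, and TIRAP, which turned from -0.24 ± 0.094 to 0.39 ± 0.094. Of 29 interferon-stimulated genes, 1 moved down, IFI6 (-0.67 ± 0.10), and none up, the number down being 1 to 3 over the settings. Of 18 genes of MHC class I presentation, 2 moved down, among them B2M, the light chain of the class I complex, which turned by a small amount (0.13 ± 0.047 and -0.19 ± 0.047).

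Among cell cycle genes, the E-type cyclins moved up and a part of the mitosis genes moved down. Of 19 cyclins, kinases and inhibitors of G1, 6 moved up and 4 down. CCNE1 and CCNE2, the cyclins that start DNA replication, both moved up. CCNE1 was at 17.6 and 18.6 CPM with DMSO and 9.76 and 11.8 CPM with pacritinib at 4 h, and 19.9 and 18.5 CPM with DMSO and 23.8 and 24.4 CPM with pacritinib at 48 h and turned from -0.75 ± 0.092 to 0.33 ± 0.087, an interaction of 1.07 ± 0.13. CCNE2 went from -1.10 ± 0.12 to 0.047 ± 0.11, and E2F1, the factor that drives them, turned from lower to higher. CDKN1A, the inhibitor p21, moved up (1.16 ± 0.26) at 2 to 6 CPM. Of 38 DNA replication genes, 5 moved up, near the 10.3% of all genes, and 1 down (0 to 2 over the settings). Those that moved up include POLA2, a subunit of the DNA polymerase alpha-primase complex, (0.55 ± 0.081) and CHAF1B, a histone chaperone, with a turn (-0.18 ± 0.054 and 0.16 ± 0.054). Of 39 mitosis genes, 12 moved down and 1 up, with a median of -0.12. At 4 h 6 were higher and 10 lower (13.1% and 17.4% of all genes), and at 48 h 17 were lower and none higher (10.1% and 8.26%). The number that moved down fell to 7 without DMSO 48 h replicate 1 and to 6 without pacritinib 48 h replicate 1. KIF18A, a kinesin that aligns chromosomes, went from 0.16 ± 0.089 to -0.34 ± 0.093, and BUB1, a checkpoint kinase, turned. CENPF and NEK2 moved down (-0.51 ± 0.13 and -0.56 ± 0.15), calls that were lost in 2 and 3 of the 8 fits without a library.

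Of 19 histone genes, 10 were lower at 48 h and none higher (10.1% and 8.26% of all genes). In the interaction 3 moved up and 5 down, among them H2AFX (0.33 ± 0.078) and HIST1H1C (-0.36 ± 0.082). The 5 were 2 without DMSO 48 h replicate 1 or pacritinib 48 h replicate 1 and 3 without DMSO 4 h replicate 2. Of 12 genes of the MYC network, 2 moved down, MYCN from -0.48 ± 0.15 to -1.68 ± 0.18 and MNT (-0.40 ± 0.10). Of 33 ribosome biogenesis genes, 4 moved up and 5 down, among them FBL, the methyltransferase fibrillarin (-0.33 ± 0.063), against 10.3% and 7.58% of all genes. The 4 were 2 without DMSO 48 h replicate 2, DMSO 4 h replicate 2 or pacritinib 4 h replicate 2, and the 5 were 2 without DMSO 48 h replicate 1, DMSO 4 h replicate 1, pacritinib 48 h replicate 2 or pacritinib 4 h replicate 2. Of 22 p53 targets, 4 moved up and 1 down, a median of 0.20 (2 up without DMSO 48 h replicate 1, DMSO 4 h replicate 2 or pacritinib 4 h replicate 2), including PLK3 (0.76 ± 0.12), while CCNG1 moved down (-0.35 ± 0.070). Of 15 genes of the BCL2 family, 3 moved up and 1 down. BCL2 was at 11.99 and 11.6 (DMSO, 4 h), 5.12 and 5.85 (pacritinib, 4 h), 12.1 and 10.6 (DMSO, 48 h) and 12.4 and 13.2 CPM (pacritinib, 48 h), a loss at 4 h that was not seen at 48 h (interaction 1.28 ± 0.15), and the pro-apoptotic BCL2L11 moved down (-0.28 ± 0.082), its call being lost in 3 of the 8 fits without a library.

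The genes encoded by the mitochondrial genome were all higher with pacritinib at 48 h and none was called at 4 h. Of 13, 8 moved up and none down, with medians of 0.10 at 4 h, 0.60 at 48 h and 0.49 for the interaction. MT-ND4, a subunit of complex I, was at 3156 and 2214 CPM with DMSO and 2810 and 2694 CPM with pacritinib at 4 h, and 2787 and 2859 CPM with DMSO and 4565 and 4201 CPM with pacritinib at 48 h. The DMSO libraries at 4 h differed from each other by more than any other pair, with an interaction of 0.60 ± 0.18 (edgeR adjusted p = 0.0173). Without DMSO 4 h replicate 1 none of the 13 genes had an interaction, and without DMSO 4 h replicate 2 all 13 did. Without DMSO 48 h replicate 1 the count was 3, without pacritinib 48 h replicate 1 or 2, or pacritinib 4 h replicate 1, it was 5, without pacritinib 4 h replicate 2 it was 2, and DESeq2 called 1. It was 13 with no filter on low counts and 10 to 12 with a replicate block or with the 8 libraries alone. Protein-coding mitochondrial transcripts took 1.717% to 2.483% of the counts in the other 6 libraries and 3.175% to 3.306% with pacritinib at 48 h.

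Nuclear genes of the respiratory chain did not move with them. Of 26, 5 moved down and none up, 13 being higher at 4 h and 2 at 48 h (13.1% and 8.26% of all genes). The count of 5 fell to 1 without pacritinib 4 h replicate 2, to 2 without DMSO 48 h replicate 2, DMSO 4 h replicate 2 or pacritinib 48 h replicate 2, and to 3 without DMSO 48 h replicate 1 or pacritinib 48 h replicate 1. NDUFB5, a subunit of complex I, went from 0.42 ± 0.058 to 0.0010 ± 0.059. All 27 cytosolic ribosomal protein genes were higher at 4 h (13.1% of all genes), with a median of 0.21. At 48 h 5 were higher (8.26% of all genes), with a median of 0.091. Of these, 4 moved down and none up, a count that ran from 1 without DMSO 48 h replicate 1 to 14 without pacritinib 48 h replicate 1. It was 2 without DMSO 4 h replicate 1, pacritinib 48 h replicate 2 or pacritinib 4 h replicate 2, and was 7 to 10 with RLE scaling, no filter, the 8 libraries alone or DESeq2. RPS19 went from 0.27 ± 0.051 to 0.024 ± 0.051, a call lost without DMSO 48 h replicate 1. Of 23 glycolysis genes, 2 moved up and 6 down, the 6 being 3 without DMSO 4 h replicate 1 or pacritinib 4 h replicate 2 and the 2 being 4 with the 8 libraries alone. Over all genes 10.3% moved up and 7.58% down, here and for the lists below. PFKFB3, which makes the activator of phosphofructokinase, moved up (0.47 ± 0.093), and PKM, pyruvate kinase, turned from higher to lower. Of 17 hypoxia targets, 3 moved up and 2 down (1 without DMSO 4 h replicate 2). VEGFA went from -0.79 ± 0.096 to -0.0032 ± 0.089 as its level with pacritinib rose by 1.19 ± 0.095. Of 19 NRF2 and pentose phosphate genes, 1 moved up (0 without DMSO 4 h replicate 2, pacritinib 48 h replicate 2 or pacritinib 4 h replicate 2) and 3 down (1 without DMSO 48 h replicate 1 or pacritinib 4 h replicate 2). Of 31 lysosomal genes, 3 moved up and 3 down, near the shares of all genes (10.3% and 7.58%). The number down was 5 with DESeq2 and was smaller without some single libraries. NEU1 (0.48 ± 0.11) was among those that moved up and ATP6V1A (-0.42 ± 0.079) among those that moved down.

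Since an interaction combines 2 changes over time, each was examined. Between 4 h and 48 h, 5535 genes changed with pacritinib (34.4%, 2994 higher and 2541 lower) and 1312 with DMSO (8.16%, 649 or 4.04% higher and 663 lower). Of the 1662 genes that moved up, 1295 were higher at 48 h than at 4 h with pacritinib and not called in DMSO, 137 were lower in DMSO and not called with pacritinib, and 87 did both. Of the 1219 that moved down, 920 were lower with pacritinib and not called in DMSO, 99 were higher in DMSO and not called with pacritinib, and 59 did both. Both components share the libraries of the interaction, so these counts describe it and do not support it. Of the 126 genes that turned up, 120 rose with pacritinib and 37 fell in DMSO. Of the 102 that turned down, 99 fell with pacritinib, and in DMSO 21 rose and 3 fell. The largest control changes among the named genes were in PHLDA1, ATF3, CHAC1 and CYP26B1, all named above, ATF3 by its interaction only. GSDMB, which encodes a gasdermin, is a further case in which DMSO moved (0.78 ± 0.15) and the change with pacritinib was -0.22 ± 0.15 (edgeR adjusted p = 0.257). MYH7B, a myosin gene, was the opposite case, with 0.27 ± 0.097 in DMSO (edgeR adjusted p = 0.0767) and -0.84 ± 0.092 with pacritinib.

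**Figure D4:**
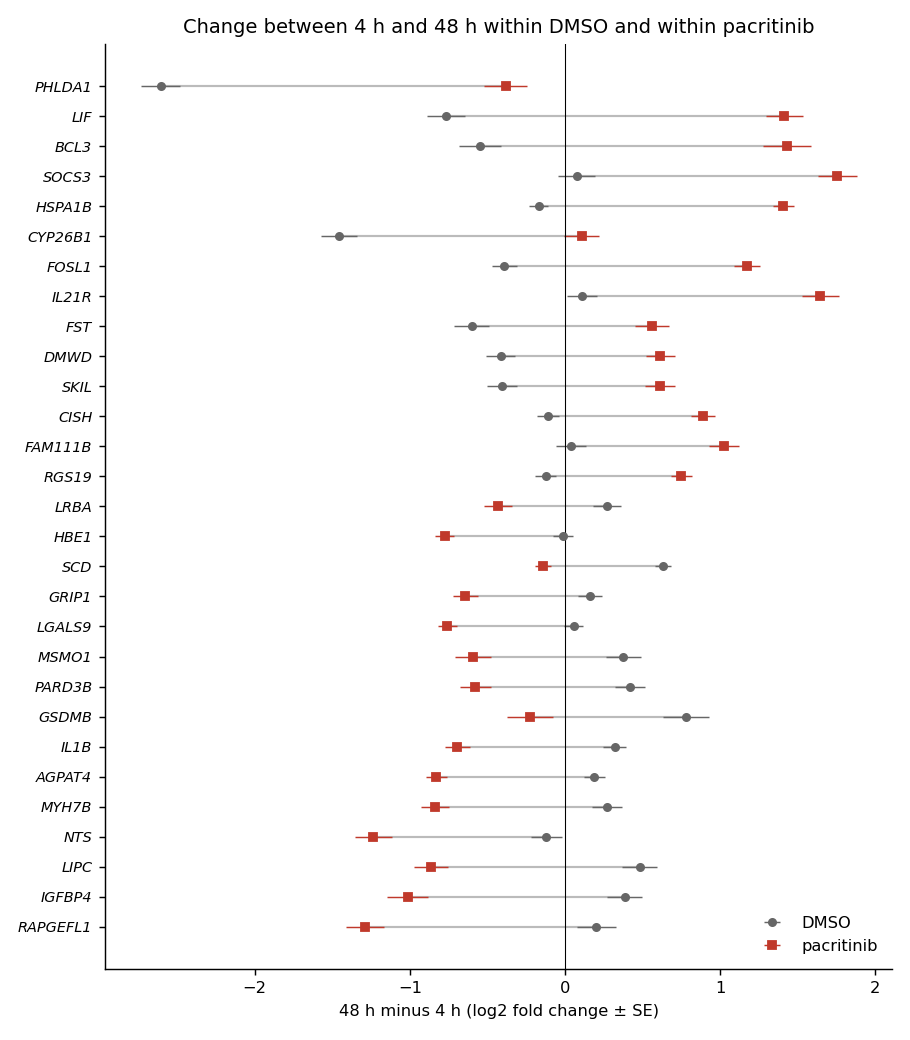
For 29 genes chosen for the largest interactions or turns, the log2 change from 4 h to 48 h in DMSO (grey circles) and with pacritinib (red squares), with bars of 1 SE, the distance between the 2 points being the interaction. For most genes the grey point lies near 0 and the red point away from it, as for SOCS3 and RAPGEFL1, while for PHLDA1 and CYP26B1 the grey point is the one away from 0.

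To see where the course with pacritinib differed from that with other JAK inhibitors at the same dose and times, the change from 4 h to 48 h with pacritinib was compared with that with ruxolitinib, a JAK1 and JAK2 inhibitor, and with fedratinib, a JAK2 inhibitor that also acts on FLT3. These tests use no DMSO library but share the pacritinib libraries with the interaction. Against ruxolitinib 3436 genes differed (21.4%, 1909 with the larger value for pacritinib and 1527 with the smaller), and against fedratinib 2733 (17%, 1555 or 9.67% and 1178). Both inhibitors were compared for every gene, and p-values were adjusted over all genes within each comparison.

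JAK-STAT targets did not follow a single order. For LIF, SOCS3, OSM and SOCS2 the gain over time was larger with pacritinib than with either drug. The difference was 2.45 ± 0.21 against ruxolitinib (edgeR adjusted p = 2.87e-10) and 2.21 ± 0.17 against fedratinib (3.17e-10) for LIF, and 0.76 ± 0.21 (0.00866) and 1.38 ± 0.17 (1.45e-06) for SOCS3. For CISH and PIM1 the gain was smaller than with ruxolitinib, -0.44 ± 0.11 (edgeR adjusted p = 0.00496) and -0.60 ± 0.076 (5.1e-07), and larger than with fedratinib, 0.63 ± 0.10 and 0.28 ± 0.075. Against its DMSO control, CISH was at -1.75 on the log2 scale at 4 h and -0.33 at 48 h with ruxolitinib, -0.18 and 0.17 with fedratinib, and -0.57 and 0.42 with pacritinib. For BCL2L1 neither difference passed the test, 0.16 ± 0.063 against ruxolitinib (edgeR adjusted p = 0.0607) and 0.14 ± 0.062 against fedratinib (0.131), which does not show that the drugs act alike.

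For globin genes the course with pacritinib lay below that with both drugs. Their median change from 4 h to 48 h was -0.417 with pacritinib and -0.219 in DMSO. The differences below also contain the change over time with the other drug. All 10 globin genes had a lower signed change over time with pacritinib than with ruxolitinib (9.5% of all genes), a median difference of -1.12. For 8 of 10 the signed change was lower than with fedratinib (7.33% of all genes), a median of -0.96. Larger and smaller changes below also refer to signed values. HBE1, for example, differed by -1.11 ± 0.088 and -0.96 ± 0.088. For MSMO1 the difference was -0.91 ± 0.17 and -0.56 ± 0.17, and for HSPA8 0.65 ± 0.062 and 0.60 ± 0.062, all called. Of the 21 serine, one-carbon and transport genes, 14 had a larger and 1 a smaller change over time with pacritinib than with ruxolitinib (11.9% and 9.5% of all genes), and 4 a larger and 2 a smaller one than with fedratinib. PHGDH gained more with pacritinib than with ruxolitinib (1.44 ± 0.10, edgeR adjusted p = 4.04e-12), and its difference from fedratinib was 0.070 ± 0.097 (0.693), with 0.22 at 4 h and 1.02 at 48 h for fedratinib against DMSO. For CHAC1 the values were 1.04 ± 0.23 (0.00137) and -0.23 ± 0.20 (0.492). CCND1 was opposite in the 2 comparisons, 3.01 ± 0.54 (0.000112) against ruxolitinib and -1.68 ± 0.37 (0.00174) against fedratinib, at levels of a few CPM. For the mitochondrially encoded genes 2 of 13 differed from ruxolitinib and none from fedratinib.

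**Figure D5:**
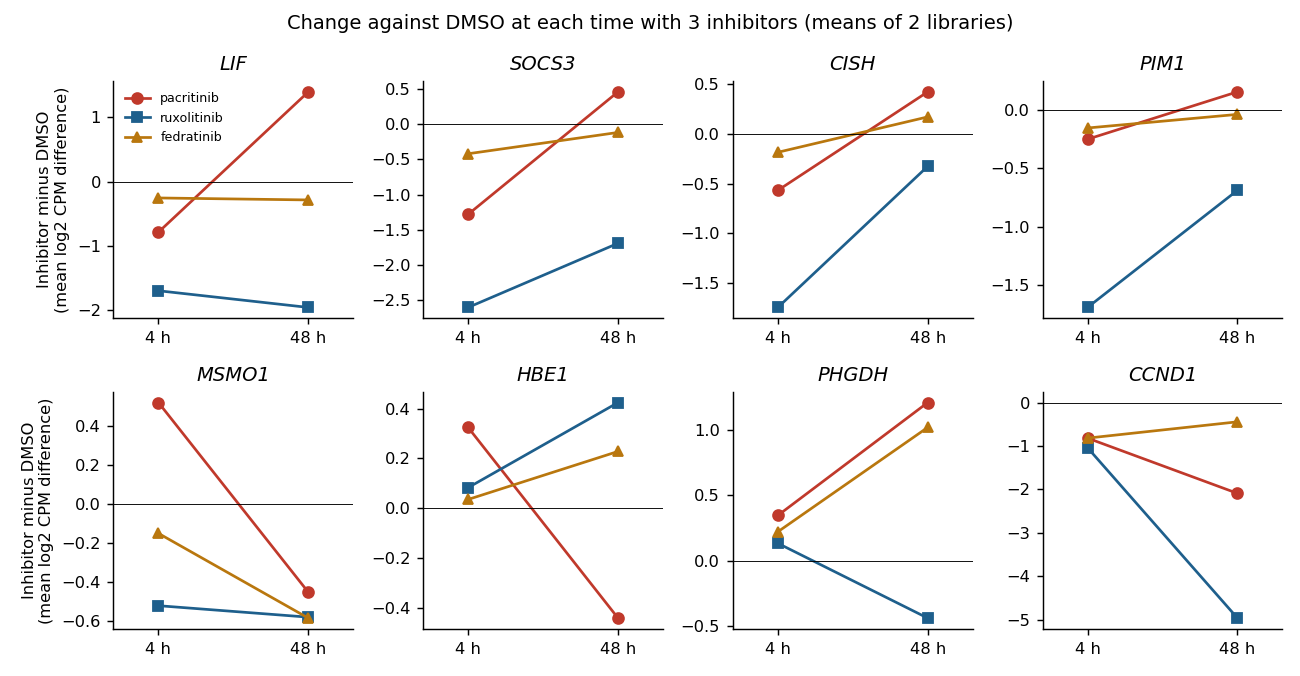
Mean log2 CPM difference from DMSO at 4 h and 48 h for pacritinib (red circles), ruxolitinib (blue squares) and fedratinib (brown triangles), each point from 2 libraries per group, with an axis of its own for each of 8 genes and a line at 0. The pacritinib line crosses 0 in 6 of the panels, from below to above for LIF, SOCS3, CISH and PIM1 and from above to below for MSMO1 and HBE1, while PHGDH is above 0 and CCND1 below 0 at both times with pacritinib.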

How the data were processed

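RNA of HEL cells was sequenced from 24 libraries in 12 groups of 2, and the deposited table gives whole-number counts per gene that the authors made from the reads. Per the submitters' processing notes, STAR 2.5.1a, bcl2fastq and edgeR were used with GRCh38, and how reads were assigned to genes, with which annotation and strand setting, is not given in the sources used here. Without strand, overlapping genes cannot be told apart. Of 34343 entries, 130 repeated an identifier with identical counts and were dropped, leaving 34213 genes, and 16076 passed filterByExpr.

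All 24 libraries were fitted with a mean per group in edgeR 4.0.16 (R 4.3.3, limma 3.58.1) by the quasi-likelihood test after TMM scaling, with 12 residual degrees of freedom, and contrasts were adjusted by Benjamini and Hochberg over all 16076 genes. The standard error was taken from the F statistic, as the absolute log2 fold change over its square root. No pairing by replicate number was assumed, since the labels do not say what a replicate number shares.

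Named genes were the 8 largest interactions per direction among protein-coding genes averaging 3 or more log2 CPM whose library differences did not overlap between times, the 10 per direction that turned with the largest value of the smaller of their 2 changes, up to 4 called members of each list averaging 0 or more log2 CPM, and 14 fixed genes. Some of the genes so chosen are not reported here, and they remain in the counts. Lists are described by counts and medians, with no set test, and 26 of 29 respiratory chain names were in the table. The comparison, lists and genes were chosen with earlier results of these data known. Alternatives were RLE scaling, other filters, the 8 libraries alone, a replicate block, scaling without abundant RNAs, each library left out, and DESeq2 1.42.0.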

Additional observations from a re-analysis of the deposited data

Results flagged for a closer look

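The effect of pacritinib against DMSO differed between 4 h and 48 h at 2881 genes by a test of the difference itself, and each of these meets the rule that 2 groups' effects under the same contrast differ. The plot of changes over time in DMSO and with pacritinib shows 29 genes chosen for the largest interactions or turns. Of the genes so named, 24 given here also changed differently over time with pacritinib than with ruxolitinib and than with fedratinib. Both tests had an edgeR adjusted p under 0.05 and the sign of the interaction. Of all genes, 21.4% differed from ruxolitinib and 17% from fedratinib, in either direction. Among others so named, GSDMB passed neither test, and CISH and IGFBP4 had the opposite sign against ruxolitinib. The 3 tests share the pacritinib libraries, and choosing large interactions favours calls of the same sign. Whether these genes are particular to pacritinib was not tested, and the values are given side by side. They are log2 values in the order interaction, against ruxolitinib and against fedratinib. The genes that moved up were PHLDA1 (2.22, 1.72, 2.33), LIF (2.18, 2.45, 2.21), BCL3 (1.98, 1.75, 1.81), SOCS3 (1.68, 0.76, 1.38), HSPA1B (1.58, 0.86, 1.03), CYP26B1 (1.56, 1.63, 1.3), FOSL1 (1.56, 0.91, 0.90) and IL21R (1.54, 1.44, 1.09). The others that moved up were FST (1.16, 1.44, 1.88), DMWD (1.03, 0.42, 0.45), SKIL (1.02, 0.38, 0.61), FAM111B (0.98, 0.49, 0.93) and RGS19 (0.87, 0.56, 0.55). The genes that moved down, from the largest value, were RAPGEFL1 (-1.49, -1.39, -1.23), MYH7B (-1.11, -1.17, -0.86), AGPAT4 (-1.02, -1.45, -1.02), IL1B (-1.02, -0.90, -0.44), PARD3B (-0.997, -0.94, -0.68), MSMO1 (-0.97, -0.91, -0.56) and LGALS9 (-0.82, -1.09, -0.76). The remaining genes that moved down were GRIP1 (-0.80, -0.82, -0.39), SCD (-0.77, -0.26, -0.35), HBE1 (-0.76, -1.11, -0.96) and LRBA (-0.70, -0.54, -0.43). LIF and PHLDA1 had the largest interactions of these. With 2 libraries a group, no group was large enough to test for single libraries that stand apart.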

How the results depend on the processing

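The interaction count of 2881 kept within 1.5 times of itself under each setting that used all 8 libraries: 2906 with RLE scaling, 2809 with no filter on low counts, 3018 with at least 1 CPM in 6 libraries, 2906 with abundant RNAs out of the scaling, 3278 with the 8 libraries alone and 2984 with DESeq2. Of the 2881 genes, 2810, 2592, 2814, 2821, 2831 and 2769 were called again in that order. The count of genes that turned down went from 102 to 159 with the 8 libraries alone, and counting turns by 1.5-fold changes gave 41 up and 33 down in place of 126 and 102. Leaving out 1 library gave 1801 to 2711 interactions (1058 to 1534 up and 743 to 1177 down), 56 to 104 genes turning up, 42 to 107 turning down, 3237 to 4861 calls at 4 h and 1492 to 2941 at 48 h. Fewer libraries raise the error of a group mean, and the lone library of a group was then assumed to vary like the other groups. Of the 168 genes chosen by the naming rule none reversed, and those that lost their call numbered 1 to 6 under any setting with all libraries that lost any, and 6 to 30 when a library was left out, with pacritinib 4 h replicate 2 at 30. CCND2 gained a call with the 8 libraries alone (edgeR adjusted p = 0.0432). The cause of these differences was not tested.

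Same-numbered libraries showed no clear shared deviation, with correlations of -0.0735 to 0.0892 between the deviations of the 4 groups over 9426 genes. Whether replicate numbers pair the libraries is not given in the labels. With the replicate block the interaction had 3049 calls (1734 up, 1315 down), 139 genes turned up and 119 down, and 5059 and 3135 genes were called at 4 h and 48 h. Against ruxolitinib and fedratinib it gave 3622 and 2923. None of the 168 genes chosen by the naming rule changed its call under the block. The spread was estimated over all 12 groups, so it rests on pairs of libraries throughout.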
